A study of Homo sapiens with 4 samples.

Results

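Of the 5326 genomic regions counted in a chromatin immunoprecipitation sequencing (ChIP-seq) study of the transcription factor HNF4A, 359 lie on chromosomes 10, 13, 14, 15 and 18. These 5 autosomes were chosen by the reads of the nonspecific IgG control, which measures the background of the method: the median per region was low on them. Chromosome 10 holds 139 of the regions, chromosome 13 holds 3, chromosome 14 holds 57, chromosome 15 holds 83 and chromosome 18 holds 77. The other 17 autosomes hold 4774 regions. All cells were HCCLM3, an established human hepatocellular carcinoma line, and 4 libraries were made: HNF4A antibody at high glucose, IgG at high glucose, HNF4A antibody at low glucose and IgG at low glucose. Each group is 1 library, so no difference between antibodies or glucose levels has a replicate check. The labels describe, with the same text for all 4 libraries, stable lines overexpressing a lentivirally delivered full-length cDNA under a CMV promoter vector, and do not name the gene. They name high-glucose medium for every sample and give no glucose concentration for either level. Whether a line is a pool or 1 clone is not stated, and the identity of the line was not checked, because ChIP reads measure DNA and not expression.

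HNF4A is a nuclear receptor that binds DNA as a homodimer at direct repeats of a short hormone-response sequence. In hepatocytes it occupies promoters and enhancers of genes for lipid, bile acid, glucose and drug metabolism and for secreted plasma proteins, and it is known for keeping liver cells differentiated. In ChIP-seq a bound site appears as more reads with the antibody than with IgG over the same stretch of DNA.

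The regions were listed next to 288 closest genes, of which 246 had 1 region, 35 had 2 and 7 had 3 or more. By RefSeq, 275 of the 288 names could be matched, and these comprised 239 protein-coding genes, 19 long noncoding RNAs, 9 miRNAs, 7 transcribed pseudogenes and 1 small nuclear RNA. The deposited tables give the closest gene of a region only, without saying whether the region lies in an exon, an intron or a promoter.

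The promoters below are shown for 2 reasons. ACSL5, which activates long-chain fatty acids, and PCNX are closest to regions with such a p and a high HNF4A signal over IgG at both glucose levels; PAOX is closest to the only other region with an unadjusted p under 0.05 and HNF4A higher at both levels in the authors' deposited tables. The other 4 promoters, each at 1 of several annotated starts of its gene, hold, in capitals, a 9-letter motif of the type bound by HNF4A, and their genes are closest to regions described later. Each window runs from 250 bases before to 50 bases after an annotated gene start and is printed in the direction of transcription, from RefSeq on GRCh38.p14. The regions are given on hg19, so their distance from these windows was not worked out.

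ACSL5, upstream start: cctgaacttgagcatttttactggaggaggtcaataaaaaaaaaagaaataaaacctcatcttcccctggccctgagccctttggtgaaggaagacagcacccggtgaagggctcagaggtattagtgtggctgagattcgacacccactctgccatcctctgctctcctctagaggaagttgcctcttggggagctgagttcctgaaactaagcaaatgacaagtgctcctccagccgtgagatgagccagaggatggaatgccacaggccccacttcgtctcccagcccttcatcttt
ACSL5, downstream start: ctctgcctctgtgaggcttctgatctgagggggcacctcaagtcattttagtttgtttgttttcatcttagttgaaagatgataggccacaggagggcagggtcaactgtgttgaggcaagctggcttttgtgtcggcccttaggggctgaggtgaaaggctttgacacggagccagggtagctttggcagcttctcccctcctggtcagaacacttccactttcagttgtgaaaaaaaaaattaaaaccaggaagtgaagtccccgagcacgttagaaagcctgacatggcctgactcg
PCNX: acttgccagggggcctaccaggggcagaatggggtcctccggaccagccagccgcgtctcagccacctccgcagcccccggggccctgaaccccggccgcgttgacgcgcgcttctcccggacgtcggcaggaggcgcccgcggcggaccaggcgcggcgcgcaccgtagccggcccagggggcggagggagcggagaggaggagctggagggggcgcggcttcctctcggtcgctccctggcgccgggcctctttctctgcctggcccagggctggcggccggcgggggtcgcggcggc
C15orf41: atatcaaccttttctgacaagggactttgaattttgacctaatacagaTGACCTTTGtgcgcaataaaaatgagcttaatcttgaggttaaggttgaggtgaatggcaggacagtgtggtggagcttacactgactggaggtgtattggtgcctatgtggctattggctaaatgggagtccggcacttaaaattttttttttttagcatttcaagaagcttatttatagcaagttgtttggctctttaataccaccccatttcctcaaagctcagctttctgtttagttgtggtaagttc
STRA6: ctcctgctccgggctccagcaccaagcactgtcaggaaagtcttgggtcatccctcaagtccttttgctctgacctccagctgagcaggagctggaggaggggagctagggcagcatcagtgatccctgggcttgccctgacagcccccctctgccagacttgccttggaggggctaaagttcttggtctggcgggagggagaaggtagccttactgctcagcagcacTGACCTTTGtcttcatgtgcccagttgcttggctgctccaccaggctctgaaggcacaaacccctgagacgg
CYP26A1: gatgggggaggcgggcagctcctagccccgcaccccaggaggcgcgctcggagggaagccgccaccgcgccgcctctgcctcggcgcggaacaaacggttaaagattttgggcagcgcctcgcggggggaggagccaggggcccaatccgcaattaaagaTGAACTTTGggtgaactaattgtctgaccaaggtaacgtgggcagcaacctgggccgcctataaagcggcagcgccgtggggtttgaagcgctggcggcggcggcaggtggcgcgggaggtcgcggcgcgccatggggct
ABLIM1: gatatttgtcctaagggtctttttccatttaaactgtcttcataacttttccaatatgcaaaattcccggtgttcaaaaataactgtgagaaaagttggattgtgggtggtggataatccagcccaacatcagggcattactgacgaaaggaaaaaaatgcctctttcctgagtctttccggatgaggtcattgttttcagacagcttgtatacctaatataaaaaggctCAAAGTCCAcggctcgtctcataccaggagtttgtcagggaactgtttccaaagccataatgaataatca

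On GRCh38.p14 these windows are chr10:112375018-112375317 and chr10:112375955-112376254 for ACSL5, chr14:70907209-70907508 for PCNX and chr15:36594627-36594926 for C15orf41, all on the plus strand. That of CYP26A1 is chr10:93073643-93073942 on the plus strand, and those of STRA6 and ABLIM1 are chr15:74212210-74212509 and chr10:114684954-114685253 on the minus strand. The motifs searched were CAAAGTCCA, CAAAGGTCA and CAAAGTTCA, each on both strands. They share their first 5 letters and differ further on, so they cannot match the same 9 bases. ABLIM1 held CAAAGTCCA at bases 231 to 239 of the printed window. C15orf41 at bases 49 to 57 and STRA6 at bases 229 to 237 held CAAAGGTCA, read on the other strand as TGACCTTTG. CYP26A1 held CAAAGTTCA at bases 161 to 169, read as TGAACTTTG. Of the 231 closest genes with a promoter in the table, 9 held any of the 3 motifs; the remaining 5 were BOD1L2, WDR7, AIFM2, CLRN3 and MAN2C1. Counted by promoter, 9 of 369 windows of these genes held one (2.44%), against 1.17% of the 4098 windows of genes closest to regions on the other autosomes and 1.08% of all 35116 windows in the table. These are counts of letters in a window, and neither a match nor its absence says whether HNF4A was bound there.

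The background that chose the chromosomes was low on them, but not on them alone. At high glucose the median IgG reads per region were 2 on chromosome 13, 11 on chromosome 14, 13 on chromosome 10, 13 on chromosome 15 and 17 on chromosome 18. Chromosomes 6, 5, 21, 4 and 22, which were not chosen, had medians of 11, 13.5, 13.5, 14 and 14 reads in the same library, inside the range of the chosen ones. The next autosomes above chromosome 18 were chromosome 16 with 22 reads and chromosome 3 with 23. At low glucose the medians were 1, 8, 10, 9 and 12 reads on chromosomes 13, 14, 10, 15 and 18, and 8, 8, 10.5, 11 and 8 reads on chromosomes 6, 5, 21, 4 and 22. Low IgG reads therefore described 10 autosomes, of which the 5 here are a part, and the remaining 12, with 4330 regions, had medians of 22 reads or more at high glucose. Chromosomes 4, 5, 6, 21 and 22, with 444 regions, are used below as the closest comparison.

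The regions on chromosomes 10, 13, 14, 15 and 18 held 25642 HNF4A reads and 15323 IgG reads at high glucose, and 20310 HNF4A reads and 15323 IgG reads at low glucose. The IgG sums were equal although the levels within the regions were not, as described at the end. A region held a median of 35 HNF4A reads and 13 IgG reads at high glucose, against 52 and 27 on the other 17 autosomes. At low glucose the medians were 24 HNF4A reads and 9 IgG reads, against 36 and 18. The regions were also shorter, with a median of 816 bp here and 1057 bp on the other autosomes. The part of length in that gap was not tested.

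Per kb of region the HNF4A signal was close to that of the other autosomes and the IgG signal was not. At high glucose the median was 41.0 HNF4A reads per kb against 46.2 on the other 17 autosomes, 11.2% lower, while IgG had 16.1 against 25.4 reads per kb, 36.4% lower. At low glucose HNF4A had 29.9 against 33.5 reads per kb, 10.6% lower, and IgG had 11.0 against 17.1, 35.3% lower. Set beside chromosomes 4, 5, 6, 21 and 22 the gap closed: HNF4A had 41.0 against 42.2 reads per kb at high glucose and 29.9 against 29.9 at low glucose, and IgG had 16.1 against 15.7 and 11.0 against 10.7. The excess of HNF4A over IgG, in scaled reads per kb, had a median of 21.7 at high and 17.6 at low glucose, against 17.7 and 15.6 on the other 17 autosomes and 22.98 and 18 on chromosomes 4, 5, 6, 21 and 22. Regions of one chromosome share their libraries and are not replicates, so these medians carry no test.

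**Figure D1:**
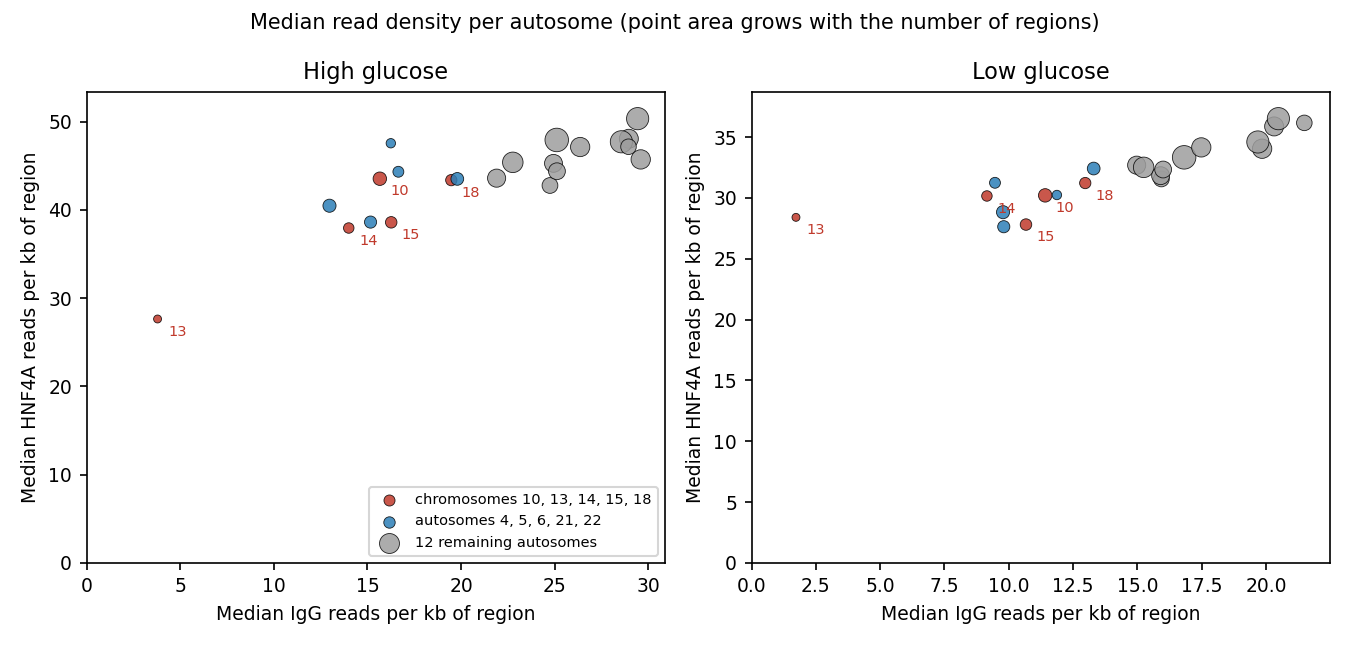
Median HNF4A reads per kb against median IgG reads per kb of region for each of the 22 autosomes, at high glucose (left) and low glucose (right); each point is 1 autosome and chromosomes 10, 13, 14, 15 and 18 are numbered. The numbered points lie among those of autosomes 4, 5, 6, 21 and 22, left of the 12 remaining autosomes, except chromosome 13, which rests on 3 regions.

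A small part of the regions held a large share of the reads. The 28 regions nearest to LOC441666, ACTR3BP5 and ROCK1, a group set after seeing the data, covered 27.1 of the 322.9 kb, and held 49.9% of the HNF4A reads and 64.5% of the IgG reads at high glucose, and 56.8% and 75.9% at low glucose. LOC441666, a locus near the centromere of chromosome 10, was the closest gene of 24 of them, between positions 42355975 and 42600336. ACTR3BP5, a pseudogene on the other arm of that chromosome, and ROCK1, a kinase gene of the actin cytoskeleton next to the centromere of chromosome 18, had 2 each. The largest, chr10:42384122-42385934, held 2634 HNF4A reads and 1669 IgG reads at high glucose, and 2388 and 2131 at low glucose. The larger ROCK1 region, chr18:18515662-18520457, held 1629 HNF4A reads and 1496 IgG reads at high glucose, and 1576 and 1839 at low glucose. Both antibodies thus gave many reads there, whereas no other region of the 5 chromosomes exceeded 129 HNF4A reads or 118 IgG reads in any library. Large counts were not confined to these chromosomes. On the autosomes of the closest comparison, the largest region counts at high glucose were 5882 of 24542 HNF4A and 5242 of 12940 IgG reads. At low glucose they were 5281 of 18289 HNF4A and 5864 of 11633 IgG reads. The share held there by all such regions was not worked out.

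**Figure D2:**
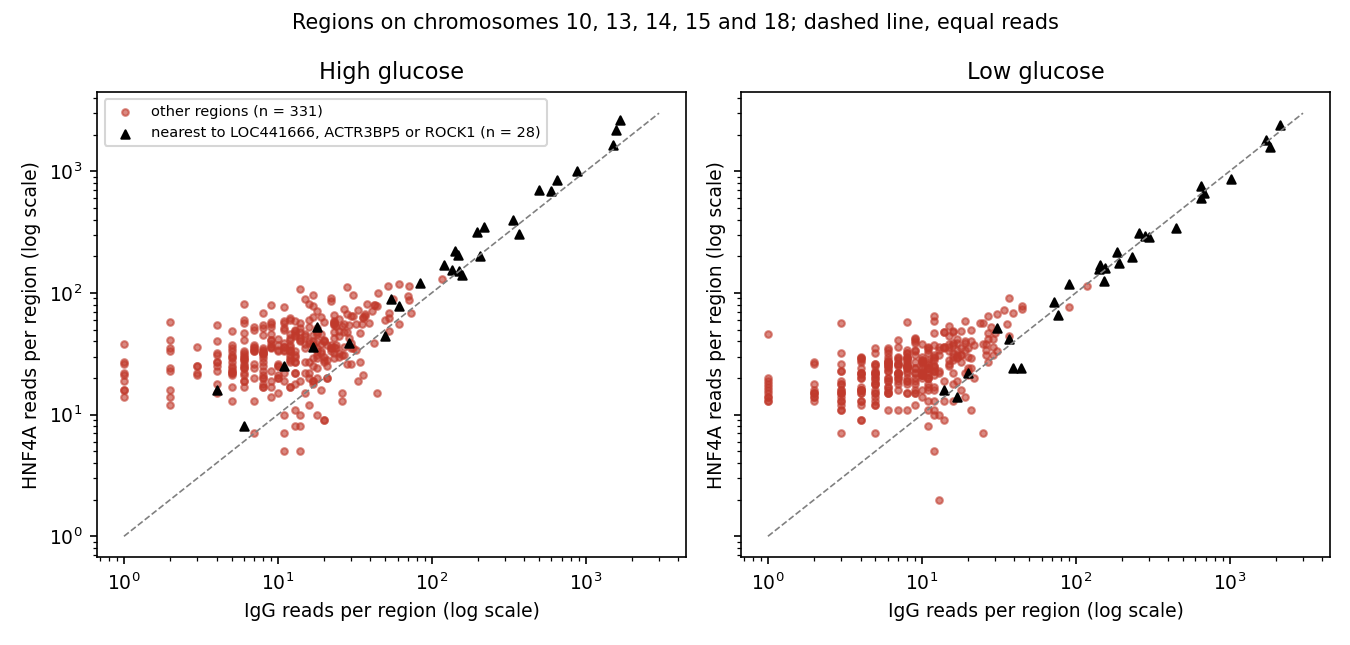
HNF4A reads against IgG reads for each of the 359 regions at high glucose (left) and low glucose (right), both axes on a log scale; triangles are the 28 regions nearest to LOC441666, ACTR3BP5 and ROCK1 and the dashed line marks equal reads. The triangles reach 2634 HNF4A and 2131 IgG reads along the line of equal reads, while most of the 331 other regions lie above it with 129 HNF4A reads or fewer.

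HNF4A over IgG is given as the log2 ratio of reads scaled for library size, with an exact 95% interval. These intervals cover counting error only, and they treat reads as independent. Reads copied by PCR are not independent molecules, so the intervals may be too narrow even for that. A listed IgG level of 1 read may stand for 0 or 1, which touches 9 regions at high and 11 at low glucose. Because IgG reads chose the chromosomes, the ratio over IgG is a description here. The median ratio was 1.18 at high glucose (quartiles 0.48 and 1.99) and 1.34 at low glucose (quartiles 0.75 and 1.97), against 0.77 and 0.92 on the other 17 autosomes. On chromosomes 4, 5, 6, 21 and 22 it was 1.38 at high and 1.42 at low glucose, above the values here. Scaling by the reads summed over all regions would lower every ratio by 0.54 at high and 0.55 at low glucose, and leaves the gap of 0.39 and 0.40 to the median of all regions as it is. Of the 359 regions, 322 exceeded IgG in the high-glucose libraries and 328 in the low-glucose ones, where 84.2% and 91.5% of all regions did. At least 2-fold above IgG were 200 at high glucose (55.7%, where 41.6% of all regions were) and 236 at low glucose (65.7%, where 46.8% were). Of the 359, 168 passed at both levels (46.8%, where 31.4% of all regions did). These are 84.0% of the 200 and 71.2% of the 236, and over all regions the same shares were 75.3% and 67.0%. The interval lay wholly above 0 in 231 regions at high glucose and 216 at low glucose, where 55.2% and 56.2% of all regions did, and wholly below 0 in 8 and 6, where 2.07% and 0.713% did. At least 2-fold below IgG were 6 at high glucose, where 1.05% of all regions were, and 3 at low glucose, where 0.488% were.

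By chromosome the median ratio at high and low glucose was 1.23 and 1.30 on chromosome 10, 1.36 and 1.64 on chromosome 14, 1.11 and 1.21 on chromosome 15, and 0.997 and 1.26 on chromosome 18. Chromosome 13 had 3.44 and 3.78 from its 3 regions, closest to SMIM2-AS1, IPO5 (an importin) and GAS6 (a ligand of TAM receptors). They held 24, 15 and 16 HNF4A reads against 2, 4 and 1 IgG reads at high glucose, and 15, 14 and 17 against 5, 1 and 1 at low glucose, so the high ratio there stood on few IgG reads. The 28 regions nearest to LOC441666, ACTR3BP5 and ROCK1 had medians of 0.29 and 0.02, and none was 2-fold above IgG at low glucose. Without them the medians over the other 331 regions were 1.25 and 1.43. The ratio of all summed reads moved more, to 1.095 at high and 1.22 at low glucose without the 28 regions, against 0.60 and 0.38 with them.

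**Figure D3:**
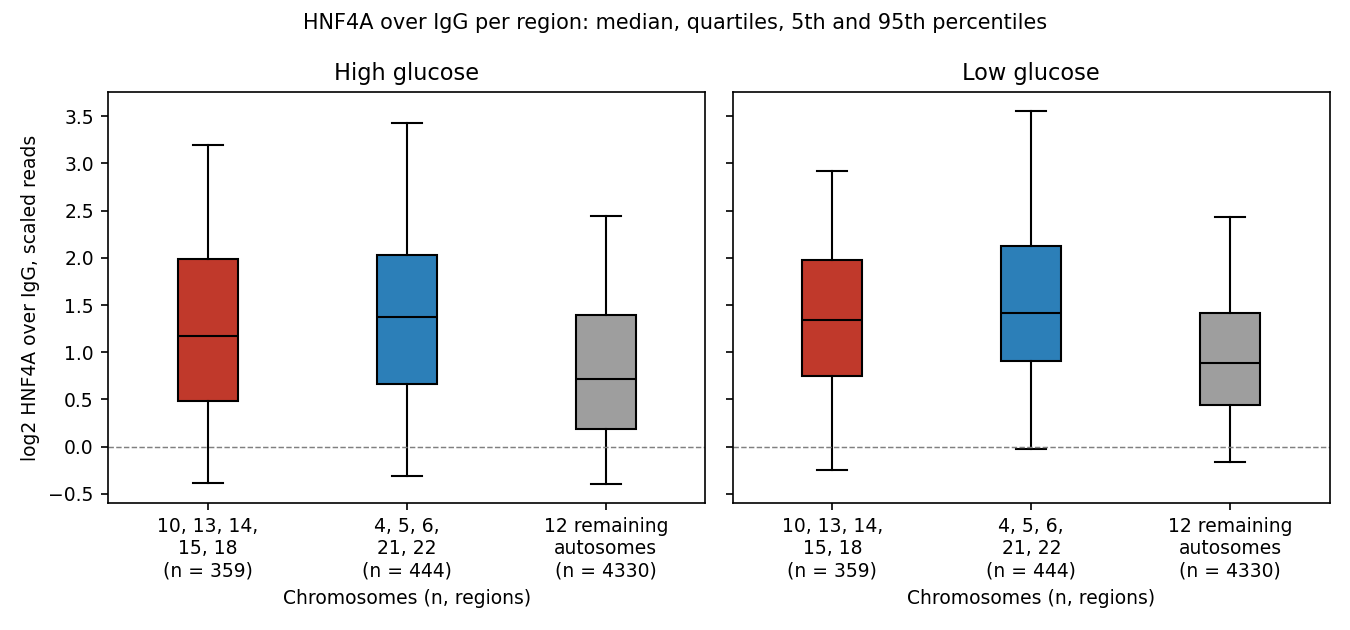
log2 ratio of scaled HNF4A over IgG reads per region at high glucose (left) and low glucose (right), for chromosomes 10, 13, 14, 15 and 18, for chromosomes 4, 5, 6, 21 and 22, and for the 12 remaining autosomes; boxes show quartiles and median, whiskers the 5th and 95th percentiles. The medians are 1.18, 1.38 and 0.71 at high glucose and 1.34, 1.42 and 0.89 at low glucose.

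At high glucose the highest ratios among the better covered regions lay next to genes of varied function. The region chr15:56244475-56245312, closest to NEDD4, a ubiquitin ligase, held 58 HNF4A reads and 2 IgG reads at high glucose, and 19 and 5 at low glucose. The log2 ratio of the high-glucose pair was 4.71 (2.79 to 7.79) and that of the low-glucose pair 1.90 (0.43 to 3.68). The 3 other NEDD4 regions did not follow it, with 0.03, 1.08 and 1.11 at high glucose. MOCOS, which sulfurates the molybdenum cofactor of xanthine oxidase, was closest to chr18:33755926-33756716, with 81 HNF4A reads and 6 IgG reads at high glucose, and 30 and 7 at low glucose. This gave 3.61 (2.42 to 5.10) with high glucose and 2.07 (0.86 to 3.50) with low. The region of LTB4R2, a leukotriene B4 receptor gene, had 54 HNF4A and 4 IgG reads at high glucose, and 41 and 7 at low glucose, for ratios of 3.61 and 2.52. TLE3, a Groucho-family corepressor, had 68 and 8 at high glucose, and 26 and 6 at low glucose, for 2.94 and 2.09. The others among the 10 highest were LOC101060542 (3.18), KLF6 (3.15), TMEM241 (3.10), PAOX (2.99), ZFP36L1 (2.82) and LOC100288846 (2.79). The limit on coverage, a sum of 50 reads over both libraries, left out, among others, DUSP5, a phosphatase of ERK, whose region held 38 HNF4A reads against 1 IgG read at high glucose, and 19 against 6 at low glucose. Its log2 ratio of 5.10 (2.54 to 10.44) in the first pair thus rests on a single IgG read.

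At low glucose the highest ratios among regions with a sum of 33 reads or more over both libraries were those of FOXN3, ACSL5 and PCNX; some regions with fewer reads, such as that of GAS6 at 4.06, were as high. The region of FOXN3, a forkhead repressor, held 33 HNF4A and 18 IgG reads at high glucose, and 46 and 1 at low glucose, for ratios of 0.73 (-0.14 to 1.64) and 5.50 (2.95 to 10.83). The ACSL5 region, chr10:114139223-114140408, held 89 and 15 at high glucose, and 57 and 3 at low glucose, for ratios of 2.42 (1.62 to 3.32) and 4.22 (2.60 to 6.54). At both genes the low-glucose ratio thus stands on an IgG library with 3 reads or fewer. PCNX, which encodes a multipass membrane protein, had 41 and 2 at high glucose and 32 and 3 at low glucose, for ratios of 4.21 and 3.39. PAOX, an oxidase of acetylated polyamines, had 79 and 9 at high glucose and 58 and 8 at low glucose, for 2.99 and 2.83. KLF6, a zinc finger transcription factor, had 2.83 at low glucose and LTB4R2 had 2.52, so that KLF6, LTB4R2 and PAOX stood among the 10 highest at both levels. The rest of the 10 were PLEKHG3 (2.88), LOC100505549 (2.83), C15orf41 (2.78) and PIEZO2 (2.65), a mechanically gated channel. C15orf41, whose promoter held CAAAGGTCA, had 41 HNF4A and 9 IgG reads at high glucose, and 35 and 5 at low glucose.

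**Figure D4:**
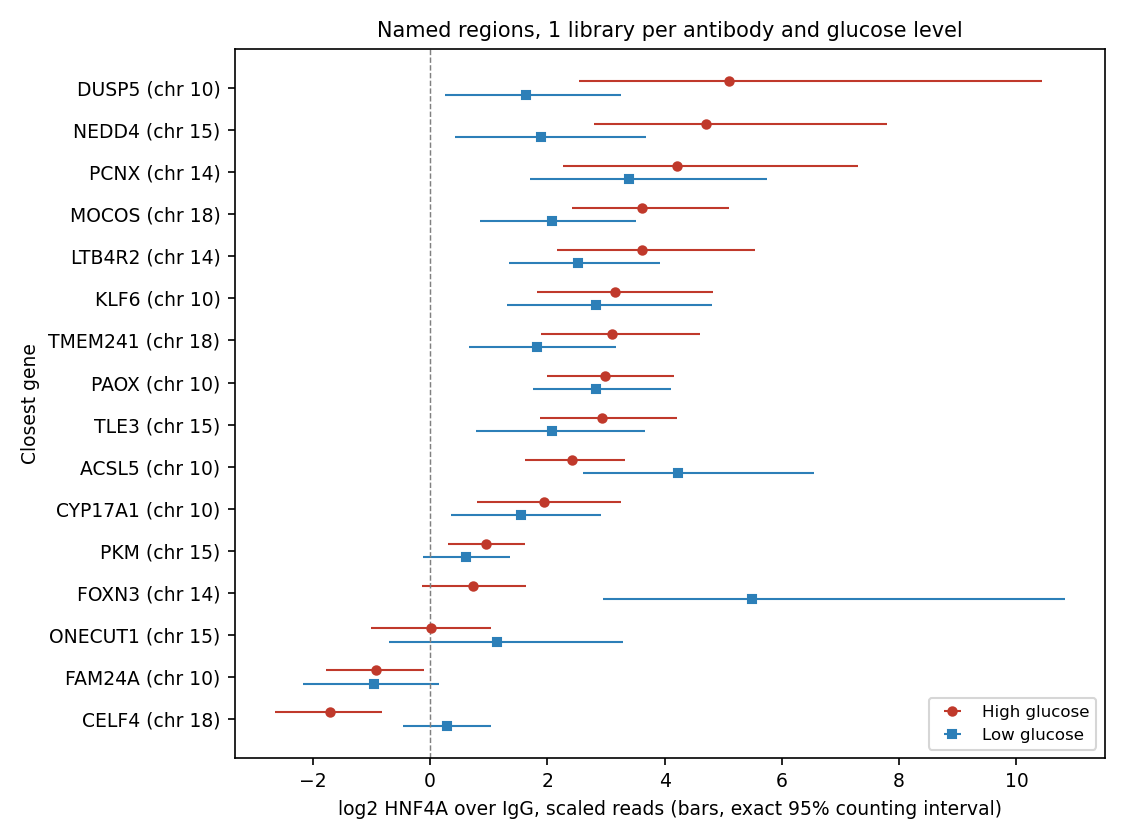
log2 ratio of scaled HNF4A over IgG reads for named regions on chromosomes 10, 14, 15 and 18, by closest gene, at high glucose (red circles) and low glucose (blue squares); bars are exact 95% counting intervals of 1 library per antibody. DUSP5 at 5.10 and FOXN3 at 5.50 carry the widest intervals, each against 1 IgG read, and CELF4 at high glucose lies below 0.

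At the low end of the regions within these limits on coverage were some with as many or more IgG reads than HNF4A reads. CELF4, an RNA-binding protein gene, was closest to chr18:34849968-34850419, and held 15 HNF4A reads and 44 IgG reads at high glucose, and 36 and 29 at low glucose. The high-glucose pair gave -1.70 (-2.65 to -0.83) and the low-glucose pair 0.29 (-0.46 to 1.04). FAM24A had 21 and 36 reads at high glucose, and 11 and 21 at low glucose, for -0.92 and -0.96. CHEK2P2, a pseudogene of the checkpoint kinase CHEK2, had 19 and 33 at high glucose, and 7 and 25 at low glucose, for -0.94 and -1.86. FAM24A and CHEK2P2 thus lay below IgG at both levels, with an interval across 0 for FAM24A at low glucose, and CELF4 at high glucose alone. The low-glucose read sums of FAM24A and CHEK2P2 were just under the limit of 33 reads, so both are named for high glucose. Within the same limits and outside LOC441666 and ROCK1, ZNF410 (-0.35) and TXNL4A (-0.30) were next at high glucose. The lowest at low glucose were THNSL1 (-0.47), OR11H12 (-0.29), SLC29A3 (-0.20) and ATP9B (-0.16). All of these had intervals that reach across 0. Some regions with fewer reads lay lower, down to that of RNLS at high glucose (-1.63) and that of SCAMP5 at low glucose (-2.73), which were named after their values were seen.

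In the authors' deposited tables, which tested HNF4A against IgG at each glucose level, no region here had a false discovery rate under 0.05, and the lowest was 0.865 at high and 0.820 at low glucose. The authors' deposited table for high glucose gave an unadjusted p under 0.05 with HNF4A higher to 20 of the regions, 5.57%, where 4.96% of all regions had one, and to none with IgG higher, where 0.0188% had one. The authors' deposited table for low glucose gave one to 8, 2.23%, where 3.04% of all regions had one. PCNX, PAOX and ACSL5 were the only 3 of them in both of the authors' deposited tables, where 0.807% of all regions were. In the authors' deposited table the p of ACSL5 was 0.024 at high and 0.00161 at low glucose, and that of PAOX was 0.0117 and 0.0146.

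Genes of the liver and glucose lists were few among the closest genes, and most of their regions lay above IgG, as did most regions (79.7% of all regions at both glucose levels). A listed gene on another chromosome could not be a closest gene here. How many listed genes lie on these chromosomes was not counted, so the low number does not speak of HNF4A. Of 34 genes of fatty acid and lipid metabolism, 7 had a region, and all 7 lay above IgG at both glucose levels. At each level 6 were at least 2-fold above it. Of all regions 41.6% at high and 46.8% at low glucose were, and of the 359 regions 55.7% and 65.7%. The 7 genes had medians of 1.61 at high and 1.30 at low glucose. Besides ACSL5 these were LIPC, encoding hepatic lipase, where 31 HNF4A reads stood against 4 IgG reads at high glucose, and 15 and 5 at low glucose (2.81 and 1.56), and GPAM, the acyltransferase that begins triglyceride synthesis, with 19 and 6 at high, and 19 and 1 at low glucose (1.52 and 4.22). NPC1, which exports cholesterol from lysosomes, had 80 and 43 at high glucose, and 38 and 26 at low glucose (0.75 and 0.52, the latter with an interval across 0). PTPLA, ECHDC3 and LPIN2 had 1.19, 2.13 and 1.61 at high glucose. Another ECHDC3 region, with fewer HNF4A reads, had 19 and 14 at high glucose, for 0.29 (-0.78 to 1.40). At low glucose it had 16 and 4, for 1.97. LPIN2 and GPAM were added to the chosen names after their values were seen.

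None of the 23 secreted liver protein genes and none of the 15 genes of AMPK and mTOR signalling was a closest gene here, where those on other chromosomes could not be. Of 22 bile acid and drug metabolism genes, 2 were. CYP17A1, a steroid hydroxylase, had 34 HNF4A and 8 IgG reads at high glucose, and 24 and 8 at low glucose (1.94 and 1.56). CYP26A1, which clears retinoic acid and whose promoter held CAAAGTTCA, had 13 and 5 at high glucose, and 13 and 4 at low glucose (1.23 and 1.67), with intervals that reach below 0.

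Of 32 liver and hormone transcription factors, 4 had a region, with medians of 1.76 at high and 1.34 at low glucose. KLF6 is given above, and FOS, of the AP-1 complex, had 51 HNF4A and 8 IgG reads at high glucose, and 27 and 10 at low glucose (2.53 and 1.41). GATA6, a zinc finger factor of endoderm, had 53 and 24, and 42 and 17 (0.997 and 1.28). ONECUT1, also known as HNF6, had 19 and 17 at high glucose, and 9 and 4 at low glucose (0.01 and 1.14), so its region did not stand apart from IgG at this depth.

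Of 23 genes of glucose and insulin metabolism, 4 had a region, with medians of 1.51 at high and 1.12 at low glucose. PKM, a pyruvate kinase gene, had 64 HNF4A and 30 IgG reads at high glucose, and 42 and 27 at low glucose (0.95 and 0.61). PFKP, a phosphofructokinase, had 2.13 and 1.62, PGAM1, a phosphoglycerate mutase, 1.09 and 1.49, and MINPP1, an inositol polyphosphate phosphatase, 1.93 and 0.76 at high and low glucose. The low-glucose intervals of PKM and MINPP1 reached below 0.

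Among signalling genes, 2 of 14 in the Wnt list, 3 of 14 in the TGF-beta and SMAD list and 3 of 29 in the growth and survival list had a region. TCF7L2, the Wnt effector, had 48 HNF4A and 14 IgG reads at high glucose, and 27 and 10 at low glucose (1.63 and 1.41). BTRC, a ubiquitin ligase subunit that marks beta-catenin for degradation, had 1 region with 20 and 8 at high glucose, and 11 and 7 at low glucose, and another with 5 and 11, and 14 and 10. SMAD6, an inhibitory SMAD, had a ratio of 2.39 at high and 1.13 at low glucose, SMAD3, a receptor-activated one, 1.41 and 0.74, and BMPR1A, a BMP receptor, 0.77 and 1.14. The low-glucose intervals of SMAD6, SMAD3 and BMPR1A reached below 0, and so did that of BMPR1A at high glucose. NEDD4 and DUSP5 of the growth and survival list are given above. ANK3, an ankyrin of neurons, was the only 1 of 24 neuron and muscle genes with a region, with ratios of 2.38 at high and 1.35 at low glucose, the latter with an interval across 0. A listed gene was represented by its region with the most HNF4A reads, a choice that favours HNF4A over IgG. The shares given beside the lists cover regions without such a choice, so they are not a like comparison.

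The other genes with several regions showed how far neighbouring regions could differ. PPIF, which encodes mitochondrial cyclophilin D, had 3 regions at 1.70, 1.31 and 1.62 at high glucose and 1.87, 1.97 and 2.39 at low glucose. MBP, myelin basic protein, had 1.72, 1.80 and 0.78 at high and 1.26, 2.27 and 0.80 at low glucose. NDUFV2, a subunit of respiratory complex I, had 0.21, 2.04 and 2.27 at high and 0.51, 0.80 and 1.97 at low glucose. CABLES1 had 2.47, 0.68 and 1.08 at high and 1.03, 1.31 and 1.27 at low glucose, and ABHD2, a serine hydrolase, had 0.52, 1.98 and 1.23 at high and 1.35, 1.39 and 0.41 at low glucose. At high glucose the 3 PPIF ratios were alike, whereas those of each of the other 4 genes spread over more than 1 log2 unit. The intervals were wide, and at MBP and ABHD2 those of the 3 regions overlapped. At NDUFV2 the lowest region (-0.33 to 0.76) did not overlap the others. At CABLES1 the highest (1.44 to 3.67) and the lowest (-0.03 to 1.42) barely missed each other. Outside LOC441666 and ROCK1, the regions with the most HNF4A reads on their chromosome, summed over both glucose levels, were SMIM2-AS1 on chromosome 13, given above, ARPP19 on chromosome 15, where 118 HNF4A reads stood against 61 IgG reads at high glucose and 78 against 45 at low glucose, and OR11H12 on chromosome 14, an olfactory receptor gene near the centromere, with 94 and 70 at high glucose, and 76 and 91 at low glucose.

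High over low glucose in the HNF4A libraries was not used to choose the chromosomes. The median log2 ratio was 0.33 over the 359 regions, against 0.36 over all regions and 0.36 over the other 17 autosomes, and scaling by summed reads would lower each by 0.31. Of the regions, 274 had more scaled HNF4A reads at high glucose, 76.3%, where 81.8% of all regions did. At least 2-fold above were 36, 10.0%, where 6.78% of all regions were, and at least 2-fold below were 4, where 0.713% were. The exact interval lay above 0 in 71, 19.8%, where 25.8% of all regions did, and below 0 in 2 (0.826% of all regions), CELF4 and the smaller region of BTRC. The IgG libraries moved the same way, with a median of 0.41 here and 0.51 over all regions, 89 regions at least 2-fold above (19.4% of all regions) and 28 at least 2-fold below (3.38% of all regions), so a higher level at high glucose was shared by the control, and its part in the HNF4A difference was not tested.

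Among regions with a sum of 59 reads or more over both HNF4A libraries, those with the largest ratio of high over low glucose are named here; with fewer reads the ratio reached 2.19. RNU6-2, a U6 small nuclear RNA locus, had 62 HNF4A reads in the high-glucose library and 18 in the low-glucose one, for 1.65 (0.87 to 2.49) on the log2 scale, beside IgG reads of 12 and 9. SLC29A3, a nucleoside transporter, had 54 and 16 HNF4A reads, a ratio of 1.62 (0.79 to 2.52), with IgG at 23 and 18. NEDD4 had 58 and 19, a ratio of 1.47 (0.71 to 2.30), with IgG at 2 and 5. At these 3 the HNF4A reads differed by more than their IgG reads did, but the exact test of that difference, described below, called none of them. The intervals of their IgG ratios were wide and reached across 0. They were -0.97 to 1.83 at RNU6-2, -0.62 to 1.31 at SLC29A3 and -4.73 to 1.27 at NEDD4. MOCOS (1.30), KLHL25 (1.29), NOLC1 (1.25), TLE3 (1.25), STRA6 (1.22), GNAL (1.21) and SMNDC1 (1.19) followed, all with intervals above 0. STRA6, the membrane receptor through which cells take up retinol and a gene whose promoter held CAAAGGTCA, had 46 HNF4A reads at high and 18 at low glucose, with IgG reads of 12 and 5. ABLIM1, an actin-binding protein named for its promoter match, had 57 and 25 HNF4A reads at high and low glucose, with IgG reads of 11 and 8. At the low end of the better covered regions outside LOC441666 were FOXN3 (-0.61), IMP3 (-0.58), C10orf76 (-0.34), IMPA2 (-0.28) and CTAGE1 (-0.18), all with intervals across 0. In the authors' deposited table for HNF4A at high over low glucose, 20 regions had an unadjusted p under 0.05 with the higher level at high glucose, where 4.39% of all regions had one, and CELF4 had one with the lower level, where 0.225% had one; the lowest false discovery rate was 0.914.

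The 28 regions nearest to LOC441666, ACTR3BP5 and ROCK1 had lower ratios of high over low glucose with both antibodies. Their median HNF4A ratio at high over low glucose was -0.04, against 0.40 in the other 331 regions, and their median IgG ratio was -0.36, against 0.55. Of the 28, 24 had fewer scaled IgG reads at high than at low glucose. Of the other 331, 238 had more (71.9%), where 77.9% of all regions did, so that direction was the usual one. Summed over all 359 regions the IgG ratio was -0.02 (-0.05 to 0.02), over the 28 it was -0.25 (-0.29 to -0.21) and over the other 331 it was 0.54 (0.48 to 0.60). The equal IgG sums thus joined opposite differences in the 28 regions and in the others.

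**Figure D5:**
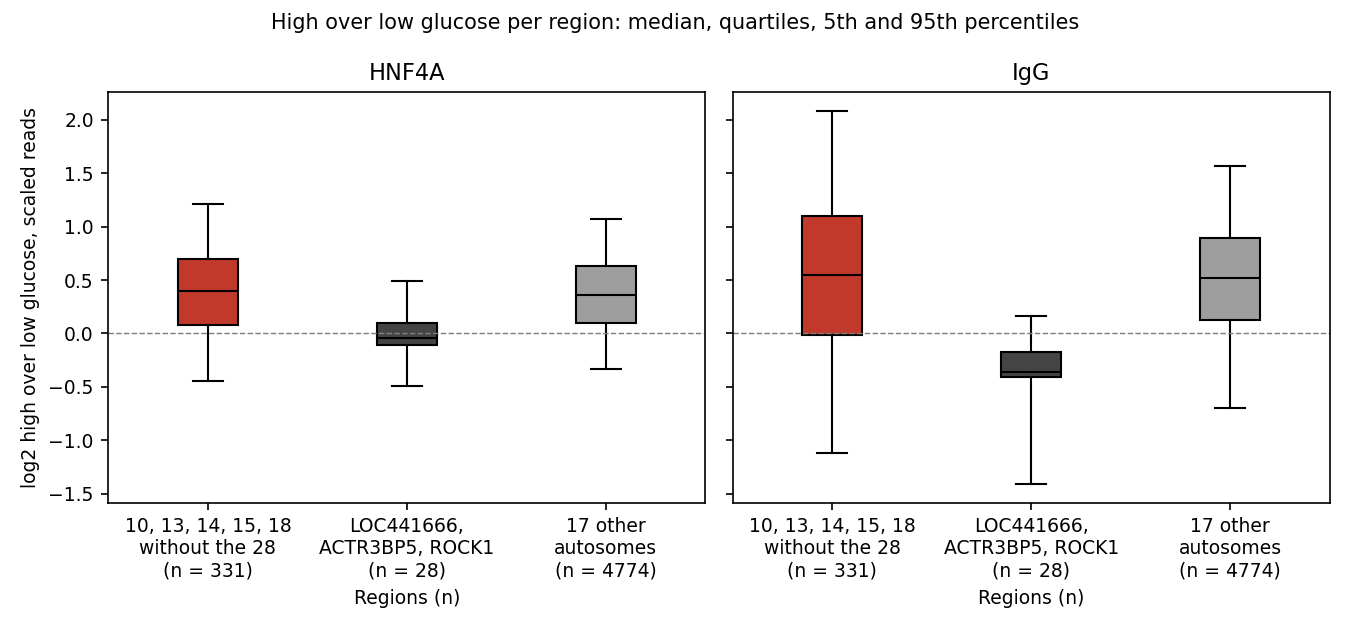
log2 ratio of scaled reads at high over low glucose per region for the HNF4A libraries (left) and the IgG libraries (right), for chromosomes 10, 13, 14, 15 and 18 without the 28 regions nearest to LOC441666, ACTR3BP5 and ROCK1, for those 28 regions, and for the 17 other autosomes; boxes show quartiles and median, whiskers the 5th and 95th percentiles. The 28 regions have medians of -0.04 for HNF4A and -0.36 for IgG, against 0.40 and 0.55 in the 331 others. No regions were left out of the 17 other autosomes, so their box is not a like comparison for the 331.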

How the data were processed

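DNA bound in HCCLM3 cells was sequenced in 4 libraries, 1 per antibody and glucose level, after 15 PCR cycles per the labels' protocols. Reads were handled with Bowtie 1.1.2, bcl2fastq, DiffBind, MACS and HOMER on hg19, according to the submitters' processing notes; for their settings, and for how regions were chosen or pooled, no source used here gives a value. The authors deposited 3 tables of log2 levels per region and antibody, and with the authors' own p-values and false discovery rates. From the steps of the deposited log2 levels whole reads were recovered: 100% of values came out whole within 0.01 of a read, with relative library sizes of 1.10 (HNF4A, high glucose), 0.993 (IgG, high), 1 (HNF4A, low) and 0.982 (IgG, low). The regions hold 402237, 249744, 295460 and 198683 reads in that order of libraries. Total library sizes are not stated.

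Log2 ratios were computed from the recovered reads and these sizes, with exact Clopper-Pearson 95% intervals. The difference of the HNF4A over IgG ratio between glucose levels was tested per region with an exact conditional 2-sided test, adjusted by Benjamini-Hochberg over 5326 regions; it compares libraries, not conditions. It was run on simulated reads drawn independently, without PCR copies or spread between libraries. That run therefore cannot show how the test behaves where these are present. Python 3.11.15, pandas 2.3.3, numpy 2.4.6 and scipy 1.17.1 were used. Closest genes were matched by symbol or older symbol to RefSeq on GRCh38.p14.

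Named regions were, among those with a read sum at or above the median of the 359 in a comparison, the 10 highest and 6 lowest by log2 ratio, 1 per gene; the region with the most HNF4A reads on each chromosome; genes with 3 or more regions; and up to 5 genes of each of 10 lists, of which 1 gene is not reported here. The members, lists and rules were chosen with earlier results of these data known. Alternatives were another scaling, 5 reads added, a minimum of 20 IgG reads, length limits of 500 and 2000 bp, 1 region per gene, a 3-fold threshold and each chromosome left out. Leaving out the regions nearest to LOC441666, ACTR3BP5 and ROCK1, and comparing with chromosomes 4, 5, 6, 21 and 22, were chosen after seeing the data.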

Additional observations from a re-analysis of the deposited data

Results flagged for a closer look

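In 7 of the 359 regions (1.30% of all 5326 regions were called) the HNF4A over IgG ratio differed between high and low glucose by the exact conditional test with Benjamini-Hochberg adjustment, which compares the 4 libraries and not the conditions. Log2 ratios were higher at high glucose in 3 regions nearest to LOC441666: by 0.374 at chr10:42384122-42385934 (adjusted p of the exact test 1.71e-06), by 0.287 at chr10:42395447-42397346 (adjusted p of the exact test 0.00604) and by 0.494 at chr10:42397751-42399220 (adjusted p of the exact test 0.00593). In these 3 the counts are large, from 501 to 2634 reads per library, and the differences are small. In the same order, the log2 ratio of high over low glucose was 0.006, 0.145 and 0.094 in HNF4A. In IgG it was -0.368, -0.141 and -0.400. The ratio of FOXN3 at high minus low glucose was -4.77 (adjusted p of the exact test 0.00329), where 33 HNF4A reads stood against 18 IgG reads at high glucose, and 46 and 1 at low glucose. That of the region of RNLS, a flavin-dependent amine oxidase, was -5.31 (adjusted p of the exact test 0.0166), with 5 and 14 reads at high glucose, and 13 and 1 at low glucose. That of CELF4 was -1.98 (adjusted p of the exact test 0.0408), with 15 and 44 reads at high glucose, and 36 and 29 at low glucose. LOC101926928 had 3.89 (adjusted p of the exact test 0.0326), with 35 and 2 reads at high glucose, and 13 and 12 at low glucose. FOXN3, RNLS and LOC101926928 rest on an IgG library with 1 or 2 reads. RNLS and LOC101926928 were named after their values were seen.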

How the results depend on the processing

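No paired analysis was possible because each group is 1 library. Of the recomputed values, 61 moved by less than the interval of the value or by less than 1.5 times, 19 moved more and 2 turned round. For medians that interval was taken over the regions. Regions are not replicates, so it only sorts these settings and measures no spread between libraries. The ratio of summed reads instead of the median gave 0.60 for HNF4A over IgG at high glucose, 0.38 at low glucose, 0.20 for high over low glucose in HNF4A and, turned round, -0.016 for the same in IgG. Scaling by the reads summed over all regions gave 0.63, 0.79, 0.024 and 0.10 for these, and 154 regions at least 2-fold above IgG at low glucose. Adding 5 reads gave 0.92, 0.97 and, for IgG, 0.27. Requiring 20 IgG reads, which left 206 of the regions, gave 0.65 and 0.88 over IgG, and 71 and 91 of the 206 regions 2-fold above it at high and low glucose. A 3-fold threshold gave 145 at low glucose. For these counts and the 154 above, no share of all regions was worked out under the same setting. Whether the share here stays above that of all regions under them was therefore not tested. Counted per region instead of per kb, IgG reads here were 0.5 and HNF4A reads 0.678 of those on the other autosomes, instead of 0.625 and 0.895. Against chromosomes 4, 5, 6, 21 and 22 they were 1.02, turned round, and 0.987. The cause of these changes was not tested. Leaving out any 1 chromosome kept the HNF4A over IgG median between 1.13 and 1.21 at high and between 1.29 and 1.39 at low glucose levels. At 13 and 9 IgG reads in the median region, a single region's ratio is imprecise, and a difference between the glucose levels cannot be told apart from one between libraries.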
